A study of Mus musculus with 5 samples.

Results

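The genes described here encode the enzymes that write and erase DNA methylation, and the measurement is acetylation of lysine 14 of histone H3 (H3K14ac) at each of them in mouse blood stem and progenitor cells. They were chosen by name: Dnmt1, Uhrf1, Dnmt3a, Dnmt3b, Dnmt3l, Tet1, Tet2 and Tet3, 8 of the 27179 genes counted, all 8 found by Entrez identifier. The rule itself uses no measured value.

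Methyl groups sit mainly on the cytosine of CpG dinucleotides. DNMT3A and DNMT3B place new ones, aided by the catalytically inactive DNMT3L, and DNMT1 copies the pattern after replication once UHRF1 has bound the half-methylated site. TET1, TET2 and TET3 oxidise methylcytosine, which opens the way to its loss. In blood, DNMT3A and TET2 are known as regulators of stem cell self-renewal and differentiation, and loss-of-function changes in both genes are found in clonal haematopoiesis and myeloid disease. H3K14ac is laid down by HBO1, also called KAT7, and is commonly found near active starts.

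The assay was CUT&Tag with the abcam antibody ab52946: the bound antibody guides the Tn5 transposase, which cuts and tags the DNA beside it. The 2 knockout libraries had the genotype Hbo1def/def; T/+, and the 2 control libraries were heterozygous, Hbo1def/+; T/+. All 4 came from LSK cells, a sorted fraction that lacks lineage markers and carries Sca-1 and Kit, taken from the bone marrow of male C57BL/6 mice. All 4 also carried T/+ as labelled and had Mx1-cre induced with poly(I:C), an interferon inducer, so the controls differ from untreated wild-type cells as well. Mx1-cre is not restricted to blood cells, and the age of the mice is not given in the labels. Whether the libraries of a group stem from different mice is not stated, and p-values therefore speak only to the spread between these libraries, which may be technical. One further library, of HBO1 itself in control cells, was not analysed here.

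Counts were made over 3 region classes: the 5 kb before a gene's start, the gene body, and the 5 kb after its end. Knockout libraries held 4723549 and 6031189 gene body counts and control libraries 12386891 and 10572534. Upstream, the totals lay between 869859 and 1164409. The upstream class took 11.4% to 16.5% of all counts in knockout libraries and 7.86% to 8.43% in control libraries. At Kat7, the deleted gene, the gene body held 88.2 and 39.1 CPM in knockout libraries and 30.7 and 30.1 CPM in control libraries (CPM being counts per 1000000 scaled counts of a region class). CPM and folds are relative to the other genes of a region class. A gene said here to rise or fall did so on that scale, and its absolute level is not known. The Kat7 gene body was called higher in knockout libraries (log2 fold 1.06 ± 0.32, edgeR adjusted p = 0.00668). The upstream region of Kat7 went the other way, with 19.3 and 24.4 CPM in knockout libraries and 45.1 and 40.6 CPM in control libraries. Neither that fold (log2 fold -0.97 ± 0.47, edgeR adjusted p = 0.0872) nor the downstream one (-0.46 ± 0.47, edgeR adjusted p = 0.548) was called. Whole-gene counts of a histone mark do not check the deletion. Upstream regions of 8 LSK marker genes averaged 13.4 to 16.9 CPM per kb in knockout libraries and 8.49 to 9.44 in control libraries, against medians of 5.97 to 6.87 over all genes tested. Those of 4 T cell genes averaged 6.99 and 9.81 in knockout libraries and 13.7 and 11.9 in control libraries, and those of 4 stromal and endothelial genes 6.53 and 9.09 in knockout libraries and 16.9 and 12.8 in control libraries. B cell genes ranged from 5.51 to 6.98 in knockout libraries and from 7.46 to 8.64 in control libraries, granulocyte and monocyte genes from 15.5 to 29.2 in knockout libraries and from 15.8 to 17.8 in control libraries, and erythroid and megakaryocyte genes from 8.60 to 9.05 in knockout libraries and from 7.29 to 7.33 in control libraries. No marker listed was at 0, and the part of these differences in the results below was not tested.

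Where each gene's regions lie decides what its counts can show. The deposited lengths matched an annotated transcript or gene of GRCm38.p6, whose main chromosomes are those of the mm10 build, to the base for 7 of the 8 genes and within 7 bp for Dnmt3l. Tet2, on the minus strand of chromosome 3, was counted from its only curated start at 133544390, and model starts 309 and 746 bp further out fall in its upstream region. Its CpGs fall mostly before that start, with 107 in the 1 kb before it and 33 in the 1 kb after it. Uhrf1, at 56303337 to 56323486 on chromosome 17, shows the opposite: 23 CpGs lie in the 1 kb before its counted start, 84 in the 1 kb after it, and a second curated start lies 976 bp inside the gene body. Dnmt3a, on chromosome 12 at 3806980 to 3914443, had 91 CpGs before and 162 after, and the start of its shorter isoform lies 84.8 kb inside the gene body. Dnmt3b on chromosome 2 (153649454 to 153687730) had 37 and 94, and Tet3 on chromosome 6 (83362373 to 83441678) had 33 and 53.

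At the other genes the counted start is one of several. Dnmt1, on the minus strand of chromosome 9 at 20907206 to 20959888, was counted from its outermost start, with 13 CpGs in the 1 kb before it and 15 after it. Its other curated starts, at 20952979 and 20952623, lie 6.91 and 7.26 kb inside the gene body, so they were counted as gene body and not as upstream. Mouse Dnmt1 is known to use different first exons in oocytes and in somatic cells. Tet1, on chromosome 10 at 62804570 to 62880014, was counted from a start that lies 7.31 kb inside the curated RefSeq one, which falls outside all of its counted regions. The curated long start of Tet3 lies 14.7 kb outside its counted start and is missed in the same way. Dnmt3l, also on chromosome 10 at 78042287 to 78063622, has further starts 7.56, 7.67 and 13.0 kb inside its body.

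**Figure D1:**
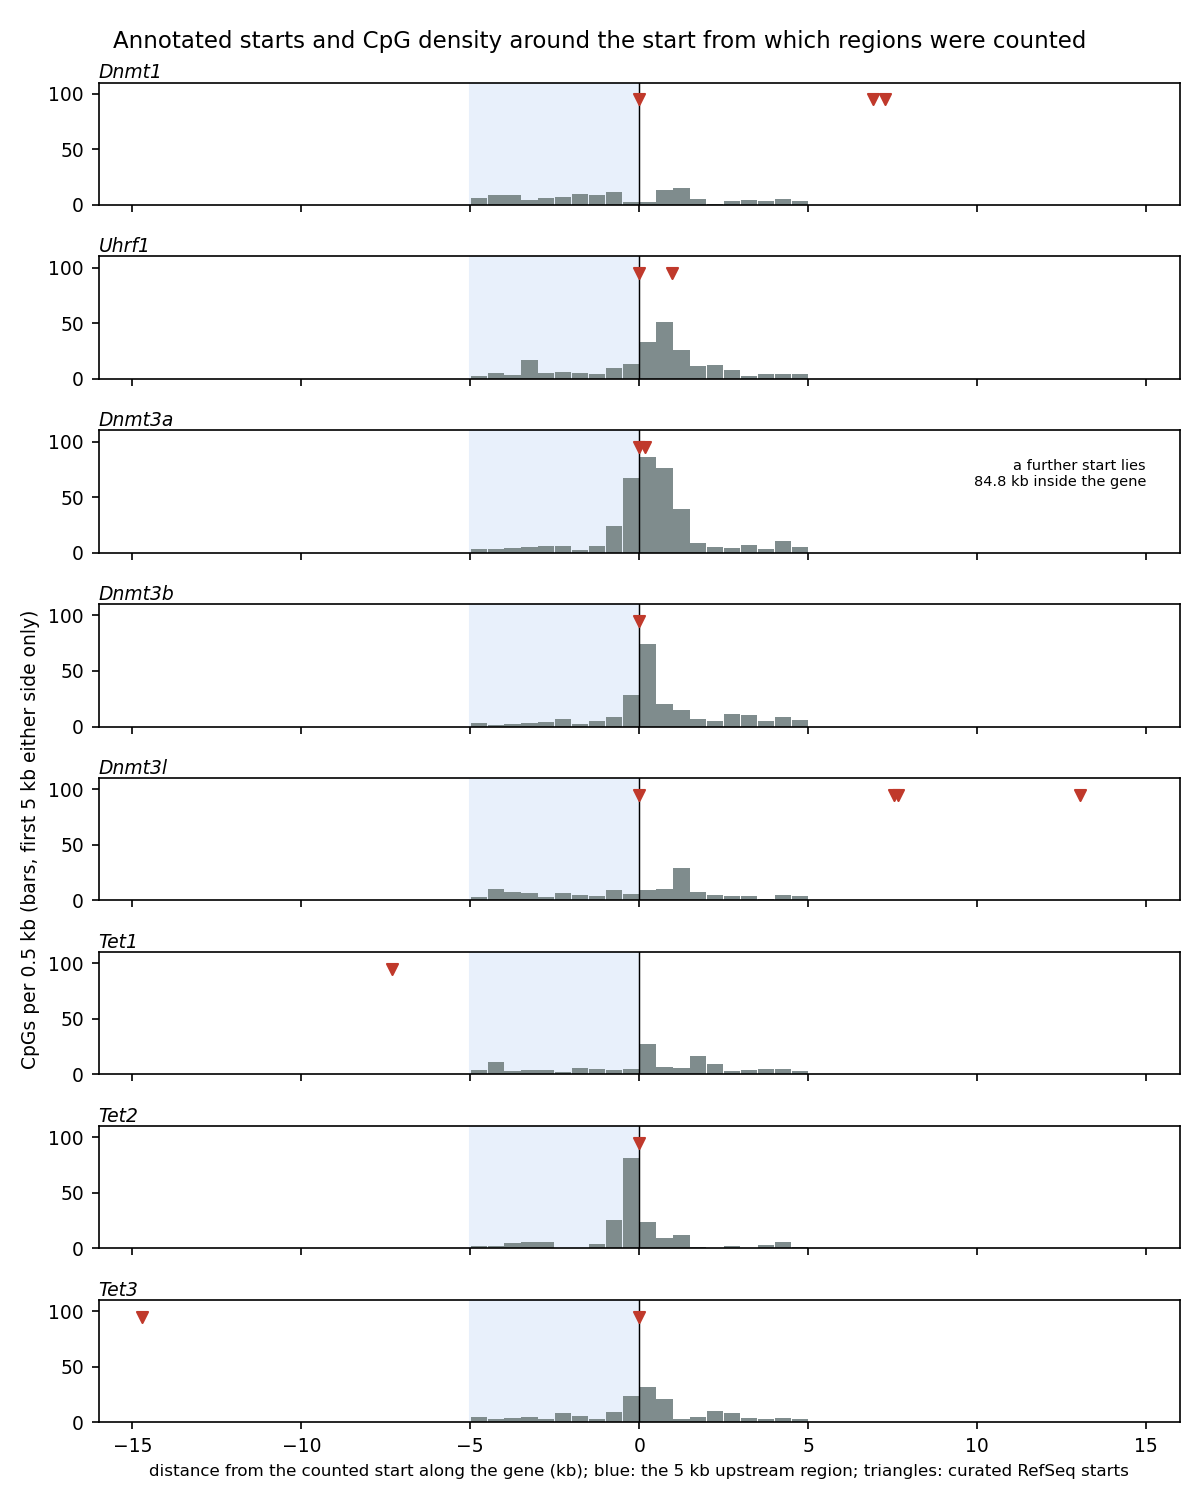
CpG count per 0.5 kb (bars, vertical axis) against distance in kb from the start used for counting (horizontal axis), for the 8 genes. The shaded area is the 5 kb upstream region and triangles are curated RefSeq starts. The CpGs of Tet2 stand mostly on the upstream side of the line, with 107 in the 1 kb before it, and those of Uhrf1 on the gene body side, with 84 in the 1 kb after it.

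The promoter sequences below, 6 in all and from RefSeq (GRCm38.p6), belong to the genes called in a region class and to Dnmt1. Tet2 and Dnmt3l were called upstream and Uhrf1 over its gene body. Dnmt1 has a counted and an inner start that differ in CpG content. Whether the changes lie at these starts or depend on their sequence was not tested. Each promoter sequence runs 5′ to 3′ on the gene's own strand, from 250 bases before the start to 50 after it, with CpGs in capitals.
Tet2, chr3:133544341-133544640, minus strand: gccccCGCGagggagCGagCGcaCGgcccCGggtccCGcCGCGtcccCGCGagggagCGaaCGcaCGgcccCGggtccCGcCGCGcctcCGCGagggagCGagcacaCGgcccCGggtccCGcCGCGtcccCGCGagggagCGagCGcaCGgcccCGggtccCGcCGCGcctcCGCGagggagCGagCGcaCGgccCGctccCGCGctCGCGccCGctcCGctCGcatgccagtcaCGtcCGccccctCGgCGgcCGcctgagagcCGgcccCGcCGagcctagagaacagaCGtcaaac
Uhrf1 at the counted start, chr17:56303087-56303386, plus strand: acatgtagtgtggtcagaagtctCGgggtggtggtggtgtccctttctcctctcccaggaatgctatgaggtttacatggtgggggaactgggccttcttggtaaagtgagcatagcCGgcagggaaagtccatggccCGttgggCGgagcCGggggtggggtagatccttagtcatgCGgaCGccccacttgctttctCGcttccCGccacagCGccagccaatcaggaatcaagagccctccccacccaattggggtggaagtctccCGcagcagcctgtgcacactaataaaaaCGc
Uhrf1 at the inner start, chr17:56304063-56304362, plus strand: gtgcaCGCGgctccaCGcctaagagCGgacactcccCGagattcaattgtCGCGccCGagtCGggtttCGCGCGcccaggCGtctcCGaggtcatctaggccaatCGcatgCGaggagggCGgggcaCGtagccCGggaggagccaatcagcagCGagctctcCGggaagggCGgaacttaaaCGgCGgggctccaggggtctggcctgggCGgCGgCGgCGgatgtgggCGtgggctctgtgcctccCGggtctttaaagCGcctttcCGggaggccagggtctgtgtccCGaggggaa
Dnmt1 at the counted start, chr9:20959839-20960138, minus strand: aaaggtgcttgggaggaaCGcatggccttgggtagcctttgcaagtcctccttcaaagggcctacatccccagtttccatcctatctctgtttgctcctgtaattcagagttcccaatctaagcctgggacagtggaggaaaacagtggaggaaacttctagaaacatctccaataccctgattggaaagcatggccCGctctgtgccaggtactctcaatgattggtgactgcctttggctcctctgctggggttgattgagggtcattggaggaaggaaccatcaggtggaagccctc
Dnmt1 at an inner start, chr9:20952574-20952873, minus strand: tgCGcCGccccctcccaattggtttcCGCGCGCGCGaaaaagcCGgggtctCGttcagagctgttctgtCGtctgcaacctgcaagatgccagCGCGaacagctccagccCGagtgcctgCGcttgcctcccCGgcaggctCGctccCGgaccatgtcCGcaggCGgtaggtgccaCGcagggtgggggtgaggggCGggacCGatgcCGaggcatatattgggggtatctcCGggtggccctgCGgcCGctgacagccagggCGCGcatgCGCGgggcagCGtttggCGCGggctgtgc
Dnmt3l at the counted start, chr10:78042037-78042336, plus strand: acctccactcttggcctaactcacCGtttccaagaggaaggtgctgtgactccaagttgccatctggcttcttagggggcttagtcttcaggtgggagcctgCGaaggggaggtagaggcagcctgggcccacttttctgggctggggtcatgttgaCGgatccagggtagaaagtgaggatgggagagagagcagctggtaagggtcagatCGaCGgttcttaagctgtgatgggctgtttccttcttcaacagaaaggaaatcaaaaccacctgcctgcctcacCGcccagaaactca
The Tet2 stretch holds 57 CpGs, more than 99.85% of the 32851 promoters of the same length, whose median is 7. It also holds 5 copies, 42 bases apart, of the run cCGCGagggagc. The longest run of letters that recurs in it has 43 bases, and 0.429% of all promoters hold a recurring run as long; its effect on read placement was not tested. Uhrf1 has 12 CpGs at the counted start and 33 at the inner one. Dnmt1 has 2 at the counted start and 33 at the inner one printed, and 12 at the other curated inner start (20952979), which is not printed. Dnmt3l has 6. Motifs were searched on both strands, counting overlapping matches. The E2F-type motif TTCCCGCC, in 2.19% of all promoters, occurs once at the counted start of Uhrf1 and not in the other printed stretches. The letters CCAAT, in 37.4% of promoters, occur 5 times at the counted start of Dnmt1, 3 times at its inner start, and 3 and 2 times at the counted and inner starts of Uhrf1.

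Upstream of the start, knockout libraries differed from control libraries at 2 of the 8 genes: Tet2, an eraser, rose, and Dnmt3l, the co-factor of the de novo enzymes, fell. Over all 23200 genes tested upstream, 38.3% passed the same threshold, 24.0% higher and 14.3% lower in knockout libraries, so 2 of 8 is not above the general rate. Over gene bodies 1 of the 8 genes passed, Uhrf1, the reader that guides DNMT1, and it rose. The rate over all 21393 genes was 38.3% there, 23.1% higher and 15.2% lower. Downstream of the end 0 of the 7 genes tested passed by edgeR's quasi-likelihood test, against 13.1% of 21566 genes. One of them, Uhrf1, had an unadjusted p under 0.05 in edgeR, and DESeq2 called 0 as well. Counted without a test, the groups did not overlap at 4 of the 8 genes upstream (77.8% of all genes), at 4 of 8 over gene bodies (80.0%) and at 4 of 7 downstream (62.6%). The median log2 fold of the 8 genes, knockout over control, was -0.042 upstream and 0.21 over gene bodies, beside medians of -0.094 and 0.019 over all genes. Downstream it was 0.30 for the 7 genes, beside -0.035. Folds depend on how libraries are scaled. Scaling on olfactory and vomeronasal receptor genes moved the median of all genes by 0.92 on the log2 scale upstream, 0.65 over gene bodies and 0.31 downstream. The shift with library totals was -0.18 upstream, 0.35 over gene bodies and -0.195 downstream. With totals pooled over all region classes it was 0.56 upstream and 0.22 over gene bodies. With the scaling used, 4 of the 8 folds upstream were positive, against 1 with the GC correction, 2 with library totals, and 7 with pooled totals or receptor genes.

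**Figure D2:**
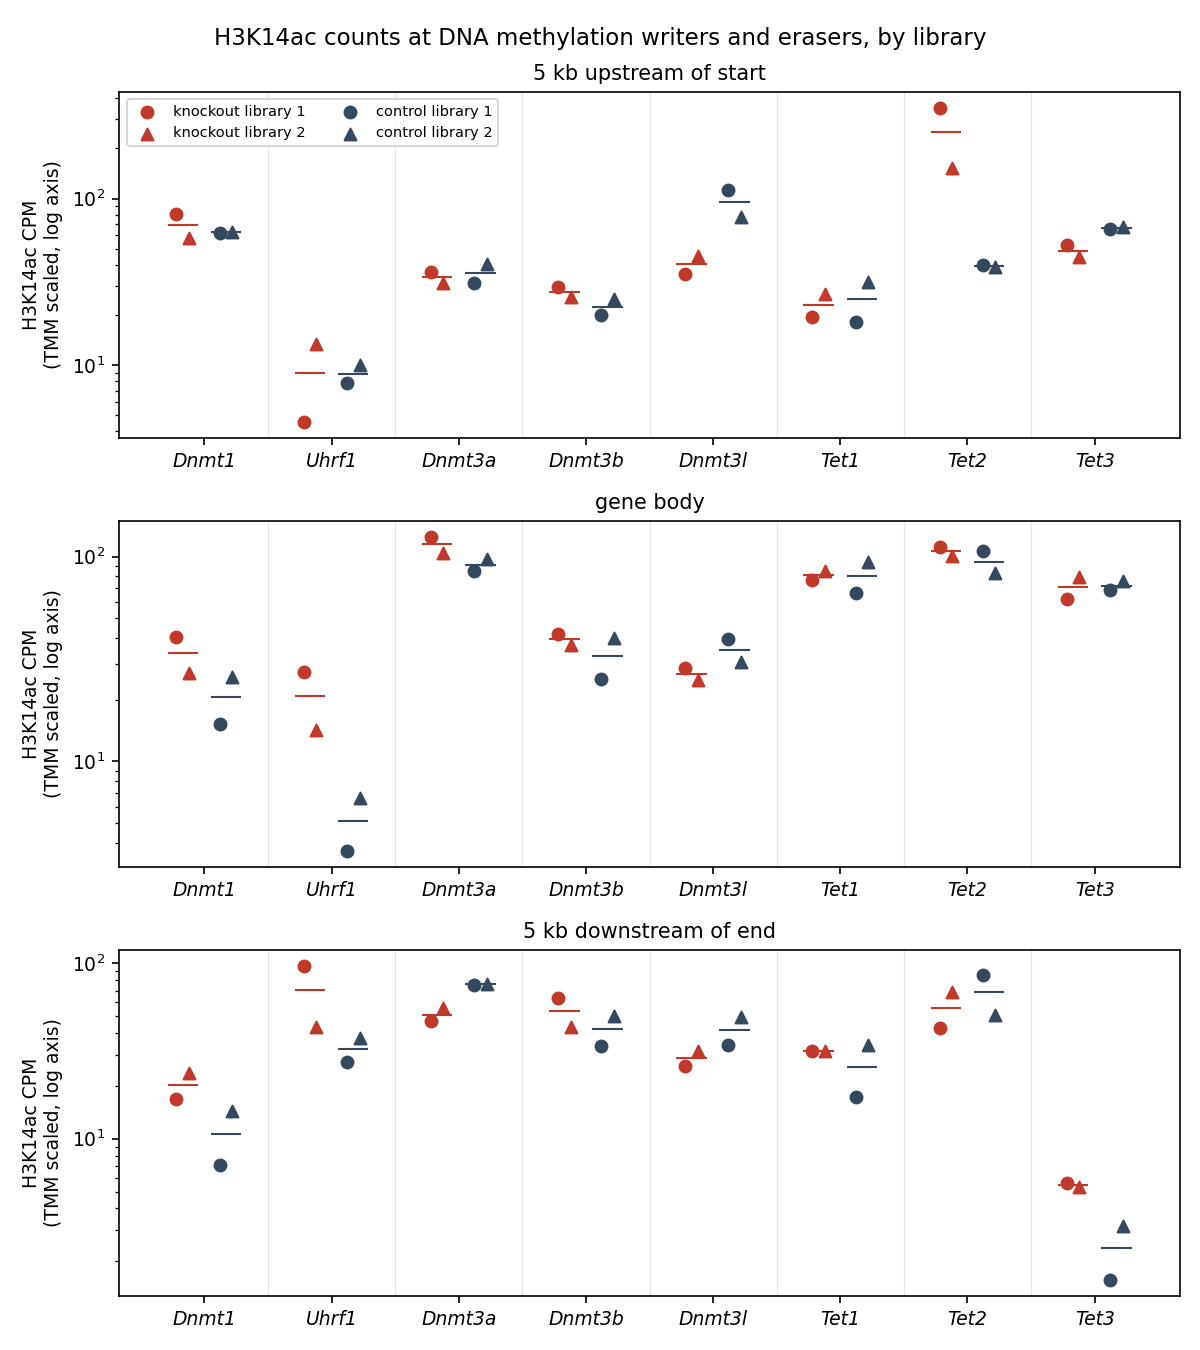
H3K14ac CPM, TMM scaled within each region class (log axis), for each of the 4 libraries at the 8 genes. Knockout libraries stand left of control libraries and short lines are group means. The knockout libraries of Tet2 stand at 351 and 152 CPM upstream, above both control libraries, and those of Uhrf1 stand above both control libraries over the gene body.

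Among the maintenance genes, Dnmt1 differed little in its upstream region. It held 80.7 and 57.6 CPM in knockout libraries and 62.5 and 63.0 CPM in control libraries, and the groups overlapped. The log2 fold was 0.14 ± 0.50 (SE, n = 2 each; edgeR adjusted p = 0.834). This region precedes the outermost start. Over the gene body, which holds the inner starts, Dnmt1 had 40.5 and 27.0 CPM in knockout libraries and 15.3 and 25.7 CPM in control libraries. Both knockout libraries were above both control libraries, the second of them by a small margin. The log2 fold was 0.71 ± 0.35, with an edgeR adjusted p of 0.0912, which missed the threshold. It passed in 3 of the 15 alternatives run, among them library totals (log2 fold 1.04, edgeR adjusted p = 0.0327). The fold ranged from 0.38 without the first control library to 1.37 with receptor scaling. It was 1.02 without the second knockout library and 0.42 without the first. With the GC correction it was 0.40 (edgeR adjusted p = 0.337). Downstream Dnmt1 had 16.8 and 23.7 CPM in knockout libraries and 7.04 and 14.4 CPM in control libraries, from 9 to 18 counts in any library. The groups did not overlap, and the edgeR adjusted p was 0.282.

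Relative to other genes, Uhrf1 had more H3K14ac over its gene body in knockout libraries. Its gene body had 27.4 and 14.2 CPM there and 3.66 and 6.63 CPM in control libraries. These stand for 148 and 95 counts in knockout libraries and 37 and 67 in control libraries. Both knockout libraries stood above both control libraries, and the first was the higher of the pair. The group means were 20.8 ± 9.3 CPM in knockout libraries and 5.14 ± 2.10 CPM in control libraries (SD, n = 2 each). The log2 fold was 2.01 ± 0.44 (edgeR adjusted p = 2.9e-04). The call was lost without the first control library, at a log2 fold of 1.63 and an edgeR adjusted p of 0.122, and it held in the other 14 alternatives run. Per kb of gene body, Uhrf1 had more counts than 54.6% of the genes tested in knockout libraries and more than 9.12% of them in control libraries.

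Upstream of Uhrf1 no change was detectable, at 4.55 and 13.3 CPM in knockout libraries and 7.81 and 9.94 CPM in control libraries. The counts were 4 and 12 in knockout libraries and 9 and 12 in control libraries. Of the region's 5000 bp, 3050 are shared with the upstream region of Arrdc5, a gene on the opposite strand. Over all placed genes, upstream regions that share from 50% to under 95% with another upstream region, as this one does, had a median of 50 counts summed over the 4 libraries (1402 genes, 2.0% of them at 0). Unshared ones had a median of 143 (19011 genes), and those that share 95% or more a median of 0 (628 genes). The sources used here do not give the treatment of reads in shared bases.

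The neighbour's region also covers the Uhrf1 start, in the same libraries, and its counts are not independent of the Uhrf1 gene body counts. The remaining 1950 bp of Arrdc5's upstream region are the first 1950 bp of the Uhrf1 gene body and hold both curated Uhrf1 starts. That upstream region had 89 and 44 counts in knockout libraries and 9 and 4 in control libraries. Its log2 fold was 3.73 ± 0.54 (edgeR adjusted p = 2.7e-09). If no reads came from the shared bases, it accounts for 60.1% and 46.3% of the Uhrf1 gene body counts in knockout libraries and for 24.3% and 6.0% in control libraries. The other 18200 bp then held 59 and 51 counts in knockout libraries and 28 and 63 in control libraries. On the gene body scale these are 10.9 and 7.60 CPM in knockout libraries and 2.77 and 6.23 CPM in control libraries, so both knockout libraries stayed higher there, by a smaller margin. The first 1950 bp stood at 16.5 and 6.56 CPM in knockout libraries and at 0.889 and 0.396 CPM in control libraries. Arrdc5 was singled out for its position, and its values were seen beforehand, so its edgeR adjusted p is no separate support for the Uhrf1 call. Downstream of Uhrf1, in a region that holds the start of Kdm4b, a histone demethylase gene, knockout libraries had 97.0 and 43.5 CPM and control libraries 27.4 and 37.5 CPM. That is a log2 fold of 1.08 ± 0.40 that missed the threshold (edgeR adjusted p = 0.0847). It passed in 2 of the 14 alternatives run. The fold ranged from 0.40 with the GC correction to 1.64 without the second knockout library, and was 0.42 without the first.

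Among the de novo genes, neither catalytic enzyme passed the threshold in any region class. Dnmt3a had 36.4 and 31.0 CPM upstream in knockout libraries and 31.2 and 40.6 CPM in control libraries. The groups overlapped (log2 fold -0.09 ± 0.46, edgeR adjusted p = 0.879). Its gene body shares 2952 bp with Dnmt3aos, a gene on the opposite strand. Over that gene body Dnmt3a had 125 and 104 CPM in knockout libraries and 85.2 and 97.2 CPM in control libraries. Here both knockout libraries were higher, but by less than the fit could separate (log2 fold 0.33 ± 0.28, edgeR adjusted p = 0.355). Only library totals gave a call among the alternatives run, at 0.67 with an edgeR adjusted p of 0.0474. Downstream, Dnmt3a had 46.6 and 55.4 CPM in knockout libraries and 75.1 and 76.6 CPM in control libraries. Both knockout libraries were lower there (log2 fold -0.56 ± 0.35, edgeR adjusted p = 0.302).

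Dnmt3b had 29.5 and 25.5 CPM upstream in knockout libraries and 19.96 and 24.9 CPM in control libraries. Knockout libraries were above control libraries by a narrow margin (log2 fold 0.29 ± 0.49, edgeR adjusted p = 0.638). Its gene body held 42.0 and 36.8 CPM in knockout libraries and 25.4 and 40.2 CPM in control libraries, and the groups overlapped. Downstream it held 63.4 and 43.5 CPM in knockout libraries and 33.7 and 50.3 CPM in control libraries, also overlapping.

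Dnmt3l, whose product binds DNMT3A and DNMT3B and is best known in germ cells, was the single gene of the 8 that passed in the lower direction. Upstream it had 35.2 and 45.4 CPM in knockout libraries and 113 and 77.9 CPM in control libraries, from 31 and 41 counts in knockout libraries and 130 and 94 in control libraries. Both knockout libraries lay below both control libraries, with group means of 40.3 ± 7.2 CPM in knockout libraries and 95.4 ± 24.7 CPM in control libraries (SD, n = 2 each). The log2 fold was -1.24 ± 0.52 (edgeR adjusted p = 0.0457). This call sat close to the threshold. It was lost in 11 of the 15 alternatives run, among them the omission of each of the 4 libraries in turn, and the fold shrank to -0.30 with receptor scaling. With the replicate block the edgeR adjusted p was 0.184.

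The upstream region of Dnmt3l lies wholly inside Aire, a gene on the opposite strand known for its role in thymic tolerance, so its counts are also gene body counts of Aire. The Aire gene body had 11.5 and 13.3 CPM in knockout libraries and 29.5 and 23.3 CPM in control libraries (log2 fold -1.09 ± 0.37, edgeR adjusted p = 0.0177). Since the Aire gene body includes the Dnmt3l upstream region, this p is no separate support for the Dnmt3l call. Over its own gene body Dnmt3l had 28.5 and 25.1 CPM in knockout libraries and 39.6 and 30.6 CPM in control libraries. Both knockout libraries were lower, without passing the threshold (log2 fold -0.39 ± 0.33, edgeR adjusted p = 0.338), and receptor scaling turned the fold to 0.29. The first 1294 bp of that body, which hold the counted start, are shared with the Aire gene body, and the treatment of reads there is not given. Bases 1295 to 6294 of the Dnmt3l body are the upstream region of Aire, which had 26 and 47 counts in knockout libraries and 117 and 78 in control libraries. Downstream, Dnmt3l had 26.1 and 31.7 CPM in knockout libraries and 34.4 and 49.5 CPM in control libraries, with both knockout libraries lower and an edgeR adjusted p of 0.389.

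Among the erasers, Tet1 showed no difference beyond the spread of the libraries. It had 19.3 and 26.6 CPM upstream in knockout libraries and 18.2 and 31.5 CPM in control libraries, and 77.1 and 85.1 CPM over its gene body in knockout libraries, against 66.3 and 94.3 CPM in control libraries. Its values overlapped in all 3 region classes, and the smallest of its edgeR adjusted p-values was 0.690, downstream. Its curated start was outside these regions and its H3K14ac is not shown by them.

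Tet2 had the most H3K14ac of the 8 genes upstream in knockout libraries. It held 351 and 152 CPM there and 39.9 and 38.9 CPM in control libraries, from 309 and 137 counts in knockout libraries and 46 and 47 in control libraries. The control libraries were nearly equal, and the knockout libraries stood well above them but differed widely from each other, the first being the higher. The group means were 251 ± 141 CPM in knockout libraries and 39.4 ± 0.7 CPM in control libraries (SD, n = 2 each). The log2 fold was 2.67 ± 0.71, a 6.36-fold difference (edgeR adjusted p = 0.00131). Per kb, Tet2 upstream exceeded 99.2% of the genes tested in knockout libraries and 62.9% in control libraries. The call was lost without the first knockout library (log2 fold 1.98, edgeR adjusted p = 0.188), without the first control library (2.69, edgeR adjusted p = 0.471) and without the second control library (2.65, edgeR adjusted p = 0.298). Without the first knockout library 0 of all genes passed upstream in edgeR's quasi-likelihood test, and 73 and 914 passed without each control library, so these fits call few genes of any kind. Of the 4 genes of this family with a CpG-rich counted start (observed over expected CpG of at least 0.6 within 500 bp), which are Dnmt3a, Dnmt3b, Tet1 and Tet2, Tet2 was the 1 that passed in the higher direction. Over all 10157 such genes tested upstream, 43.2% did.

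The Tet2 gene body held 112 and 101 CPM in knockout libraries and 106 and 82.9 CPM in control libraries. The groups overlapped (log2 fold 0.16 ± 0.29, edgeR adjusted p = 0.665). Receptor scaling raised it to 0.84 with an edgeR adjusted p of 0.0475. Downstream, Tet2 had 42.9 and 68.6 CPM in knockout libraries and 86.1 and 51.1 CPM in control libraries, and the groups again overlapped.

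Of the Tet3 upstream region, 4924 bp lie inside B230319C09Rik, a gene on the opposite strand whose start they hold. In that region Tet3 had 52.3 and 44.3 CPM in knockout libraries and 66.0 and 67.1 CPM in control libraries. Both knockout libraries were lower (log2 fold -0.46 ± 0.49, edgeR adjusted p = 0.444), and the sign turned with receptor scaling (0.52) and with pooled totals (0.11). Its gene body held 62.1 and 79.3 CPM in knockout libraries and 68.9 and 75.6 CPM in control libraries, overlapping. The first 4924 bp of that body, read through the upstream region of the noncoding neighbour B230319C09Rik, had 33 and 48 counts in knockout libraries and 75 and 68 in control libraries, a log2 fold of -0.42 ± 0.48 (edgeR adjusted p = 0.481). Downstream, Tet3 had 3 and 4 counts in knockout libraries and 2 and 4 in control libraries and was not tested. Of that region 3972 bp are shared with the downstream region of Bola3.

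**Figure D3:**
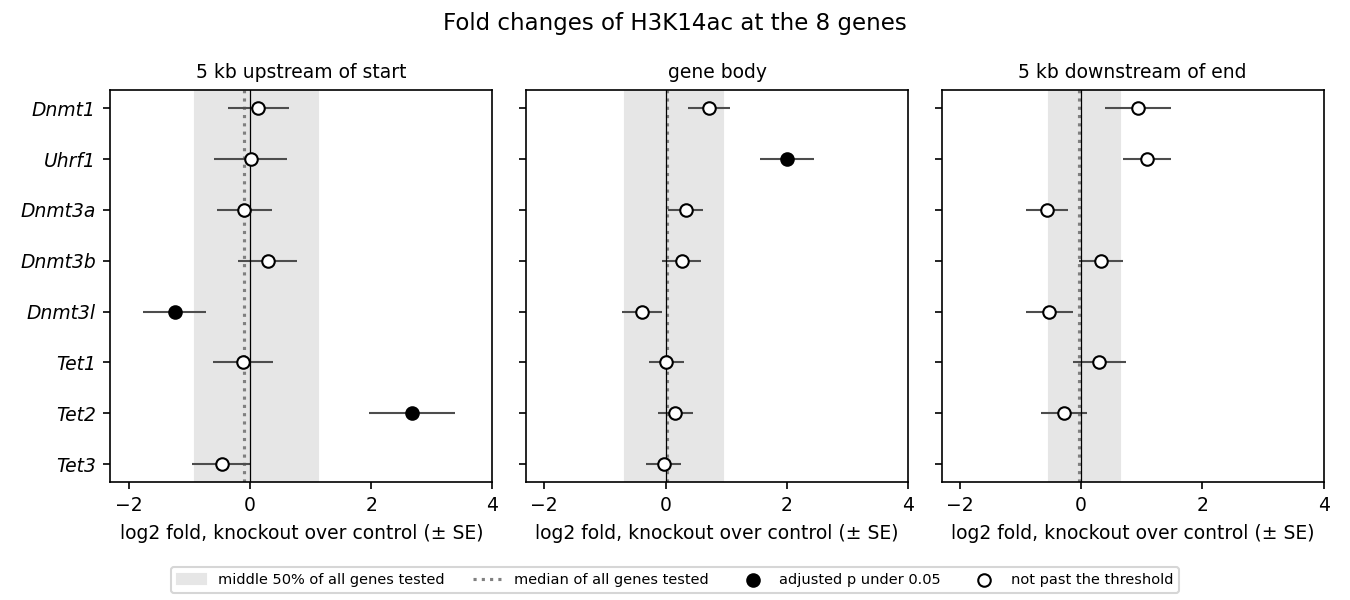
Log2 fold of H3K14ac, knockout over control, with its SE (horizontal axis) for the 8 genes in each region class. Filled points passed an adjusted p of 0.05, the grey band spans the middle 50% of all genes tested and the dotted line is their median. Tet2 (2.67) and Dnmt3l (-1.24) upstream and Uhrf1 (2.01) over the gene body are filled and lie outside the band.

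The position of the change within a gene was examined as the upstream fold against the gene body fold of the same gene, in one model with the library as a factor. Tet2 differed between the regions: its upstream log2 fold exceeded its gene body log2 fold by 2.39 ± 0.38 (edgeR adjusted p = 2.5e-04). In raw counts Tet2 had 51.2 and 20.3 upstream counts per 100 gene body counts in knockout libraries and 4.28 and 5.61 in control libraries. This ratio is taken within a library and needs no scaling between libraries, though it includes any shift of a whole library between region classes. The difference passed in all 14 alternatives run, from 1.85 with library totals to 3.01 without the second knockout library. Tet2 was the 1 of the 8 genes that passed, and 15.5% of 19996 genes did.

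Uhrf1 ran the other way. It had 2.70 and 12.6 upstream counts per 100 gene body counts in knockout libraries and 24.3 and 17.9 in control libraries. The difference of its log2 folds was -1.94 ± 0.67 (edgeR adjusted p = 0.0541), just missing the threshold, on an upstream region of 12 counts or fewer in any library. It passed in 6 of the 13 alternatives that gave a value. For Dnmt3l the ratio was 20.1 and 24.4 in knockout libraries and 32.4 and 30.4 in control libraries. Its difference was -0.84 ± 0.34 (edgeR adjusted p = 0.104). For Dnmt3a the ratio lay between 4.01 and 4.99 in all 4 libraries, with the groups overlapping.

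**Figure D4:**
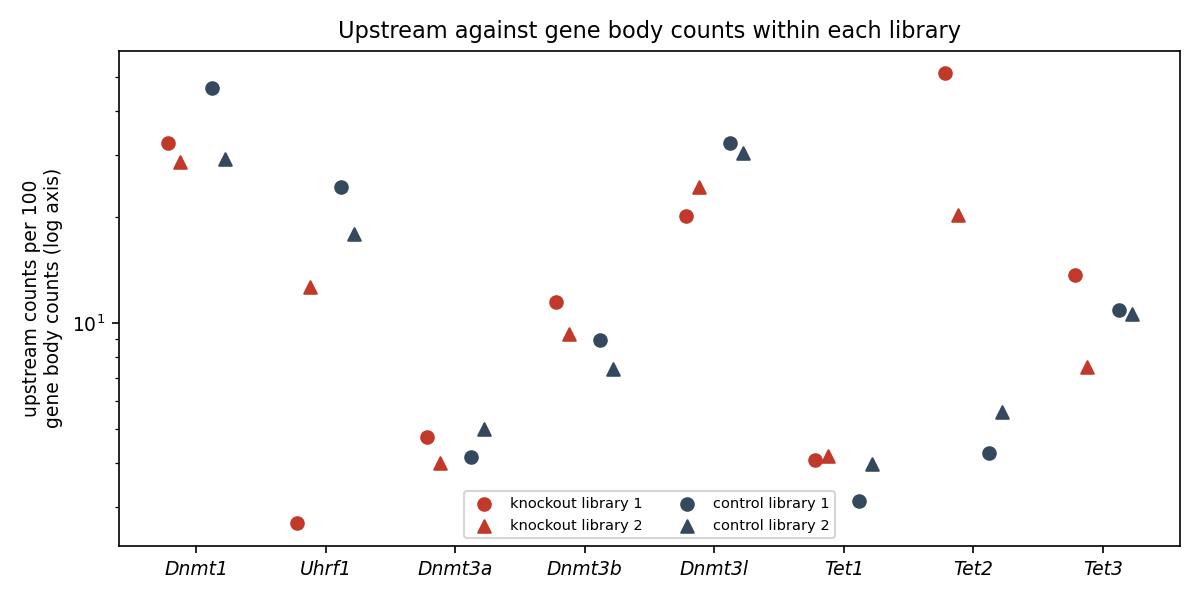
Upstream counts per 100 gene body counts (log axis) within each library for the 8 genes, knockout libraries left of control libraries. Tet2 stands at 51.2 and 20.3 in knockout libraries and at 4.28 and 5.61 in control libraries, and Dnmt3a lies between 4.01 and 4.99 in all 4.

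Summed over the 8 genes, upstream counts made up 15.3% and 9.51% of the counts in the 3 region classes in knockout libraries and 8.38% and 7.90% in control libraries. The means were 12.4% ± 4.1 in knockout libraries and 8.14% ± 0.34 in control libraries (SD, n = 2 each). An exact two-sided permutation test gave p = 0.333, the smallest that 6 assignments allow, so this design cannot pass a threshold of 0.05. Over all genes the share was 13.9% ± 3.6 in knockout libraries and 8.14% ± 0.40 in control libraries (SD, n = 2 each). Without Tet2, the other 7 genes had 8.87% and 7.61% in knockout libraries and 9.92% and 8.53% in control libraries, and the groups overlapped (exact two-sided permutation p = 0.667).

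The 8 genes also changed their order per kb. In control libraries the upstream level averaged 19.1 CPM per kb at Dnmt3l, 13.3 at Tet3, 12.5 at Dnmt1, 7.89 at Tet2, 7.19 at Dnmt3a, 4.97 at Tet1, 4.48 at Dnmt3b and 1.78 at Uhrf1. Among these neighbours, Tet2 and Dnmt3a overlapped in their libraries, as did Dnmt3a and Tet1, and Tet1 and Dnmt3b. In knockout libraries Tet2 came first at 50.3 CPM per kb, ahead of Dnmt1 at 13.8, Tet3 at 9.66 and Dnmt3l at 8.07. Dnmt3a, Dnmt3b and Tet1 followed at 6.74, 5.50 and 4.59, and Uhrf1 again was last at 1.78. There Tet3 and Dnmt3l, Dnmt3l and Dnmt3a, and Dnmt3b and Tet1 overlapped in their libraries. Upstream values per kb divide by the full 5 kb, but 3050 bp of the Uhrf1 region are shared with the upstream region of Arrdc5. How reads in those bases were counted is not given. Its part in the last place of Uhrf1 in both groups was not tested. Over gene bodies, scaled separately, Uhrf1 at 1.03 CPM per kb in knockout libraries stood close to Dnmt3a at 1.07 and Dnmt3b at 1.03. In control libraries Uhrf1 was at 0.26, below Dnmt1 at 0.39 and the other 6, from 0.85 at Dnmt3a to 1.65 at Dnmt3l. The control libraries of Uhrf1 (0.18 and 0.33) and Dnmt1 (0.29 and 0.49) overlapped there.

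Partner genes of the pathway were listed by function, with earlier results of these data known. Their rates beside those of all genes therefore cannot show that partner genes behave differently, in any region class. Among the partner genes, 17 of 35 tested upstream rose, 0 fell and 18 did not pass. Over all genes tested upstream 24.0% rose and 14.3% fell, and whether the partner genes differ from them was not tested. The 2 with the smallest p were Tdg, which excises the oxidised bases that TET enzymes make, and Pcna, the replication clamp that holds DNMT1 and UHRF1 at the fork. Tdg had 139 and 57.6 CPM in knockout libraries and 9.55 and 10.8 CPM in control libraries (log2 fold 3.25 ± 0.54, edgeR adjusted p = 2.0e-07). Pcna had 150 and 65.4 CPM in knockout libraries and 7.81 and 19.9 CPM in control libraries (log2 fold 2.94 ± 0.54, edgeR adjusted p = 2.7e-06). In both genes the first knockout library was the higher. By list, 4 of 6 CXXC proteins rose upstream, 5 of 8 base excision and TET partners, 4 of 8 maintenance partners, 3 of 5 methyl-CpG readers and 1 of 8 one-carbon enzymes. The median log2 fold of the 35 was 1.16, beside -0.094 over all genes. These counts depend on single libraries: 0 of the partner genes passed upstream without the first knockout library or without either control library, and 10 without the second knockout library.

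Over gene bodies 19 of 38 partner genes rose and 1 fell, beside 23.1% and 15.2% of all genes tested. Pcna had 37.9 and 11.5 CPM in knockout libraries and 1.19 and 1.58 CPM in control libraries (log2 fold 4.14 ± 0.52, edgeR adjusted p = 2.7e-09). Apex1, the endonuclease that cuts the site left by TDG, had 7.58 and 3.58 CPM in knockout libraries and 0.49 and 0.30 CPM in control libraries (3.76 ± 0.66, edgeR adjusted p = 8.4e-06). Wt1, a DNA-binding partner of TET2 and TET3, was the 1 that fell, with 31.1 and 40.3 CPM in knockout libraries and 84.3 and 71.5 CPM in control libraries (-1.12 ± 0.30, edgeR adjusted p = 0.00240). Downstream, 6 of 34 passed (17.6%), near the 13.1% of all genes, each of them higher in knockout libraries. The 2 with the smallest p were Apex1 (3.16 ± 0.48, edgeR adjusted p = 7.6e-04) and Pcna (3.26 ± 0.52, edgeR adjusted p = 8.4e-04). Without the first control library 4 of 38 passed over gene bodies and 2 of 33 downstream.

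By likeness of their 12 values, 4 libraries in 3 region classes on a centred log2 scale, the genes nearest to Tet2 among 15067 were Tram1, Uhrf1bp1l and Tyw1, at root mean square distances of 0.15, 0.18 and 0.18. Since the same values make up the folds, likeness here also fixes them: the upstream log2 folds of these 3 genes were 2.56, 2.65 and 2.84, beside 2.67 at Tet2. Nearest to Dnmt3a were Reck, Baiap2 and Sord at 0.081, 0.12 and 0.12. Nearest to Dnmt1 were Mphosph9, Atp1b2 and Pop1 at 0.15, 0.19 and 0.19.

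**Figure D5:**
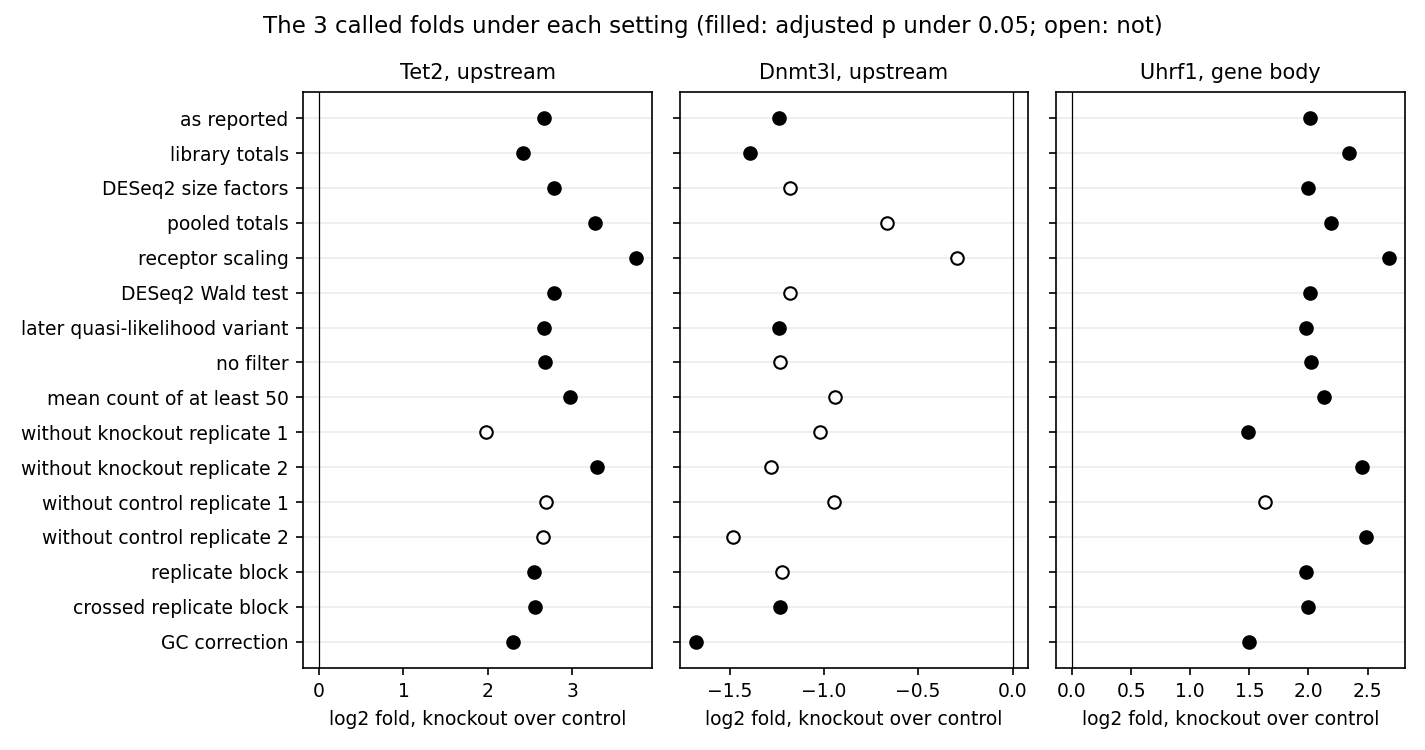
Log2 fold, knockout over control (horizontal axis), of the 3 calls under each alternative (rows). Filled points passed an adjusted p of 0.05 and open points did not. Of 15 alternatives each, Tet2 stays between 1.98 and 3.76 and is filled in 12, and Uhrf1 stays between 1.49 and 2.68 and is filled in 14. Dnmt3l stays between -1.68 and -0.30, filled in 4 and open in 11.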

How the data were processed

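The authors deposited whole-number read counts per Entrez gene for the 4 H3K14ac CUT&Tag libraries over 3 region classes (5 kb upstream, gene body, 5 kb downstream), per the file headers. The submitters' processing notes name featureCounts and mm10. The aligner, annotation release, treatment of duplicates and shared bases, and any spike-in are not given in the sources used here. Deposited gene lengths placed 24546 of 27179 genes (90.31%) on a RefSeq or GENCODE transcript of GRCm38.p6, within 10 bp for 77.52%.

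Each class was tested over all genes with edgeR 4.0.16 (R 4.3.3): filterByExpr (minimum count 10, total 15), TMM, quasi-likelihood F-test, Benjamini-Hochberg adjustment, threshold 0.05. The SE is the log2 fold's size over the square root of F. CPM is TMM scaled. All 8 genes are named. Partner genes are given as counts, with the 2 of smallest p in each direction named. Likeness used log2(CPM + 1), leaving out predicted symbols. Members and lists were chosen with earlier results of these data known. The fits were also run on simulated counts, with a 4-fold change in a small share of the genes. That setting is simpler than these data and does not test the calls made here. Alternatives were other scalings, DESeq2 1.42.0, a later quasi-likelihood variant, other filters, left-out libraries and a replicate block. A GC correction (loess span 0.3) and a crossed block were added after seeing the data. Counts of the libraries within a group differed by more than sampling noise, with chi-square per degree of freedom of 2.33 to 18.3. Python 3.11.15 with scipy 1.17.1 was used for the rest.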

Additional observations from a re-analysis of the deposited data

Results flagged for a closer look

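The fold of Tet2 differed between the regions of the gene: the upstream log2 fold, knockout over control, was 2.39 above the gene body log2 fold by the edgeR interaction test (adjusted p = 2.5e-04). The upstream counts were 309 and 137 in knockout libraries and 46 and 47 in control libraries, and the gene body counts were 603 and 674 in knockout libraries and 1076 and 838 in control libraries. Its values were picked out because this test passed. Its promoter's 42-base repeat and the upstream share of all counts, 11.4% to 16.5% in knockout libraries and 7.86% to 8.43% in control libraries, stand beside it, and their part in it was not tested.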

How the results depend on the processing

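Upstream, 2 of the 8 genes passed. The number was 1 with DESeq2 size factors, the DESeq2 Wald test, pooled totals, no filter, the filter at a mean count of 50 (4 genes tested), receptor scaling and the replicate block, and between 0 and 1 with a library left out. Over gene bodies 1 passed, against 2 with receptor scaling and the crossed block, 3 with library totals, and 0 to 2 with a library left out. Downstream 0 passed, against 1 with the crossed block and 0 to 1 with a library left out. Of the differences between upstream and gene body folds 1 passed, against 2 with the GC correction, the crossed block, the later quasi-likelihood variant, no filter and the replicate block, 4 with library totals, and 1 to 3 with a library left out. The upstream share of the 8 genes, 4.29 percentage points higher in knockout libraries, ranged from 1.37 to 7.21 with a library left out and was 13.0 points higher when counted per kb.

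Replicate numbers in the labels are not said to mark a shared animal or day. Deviations of same-numbered libraries correlated across genes at -0.279 upstream, -0.37 over gene bodies and -0.216 downstream. With the replicate block 4353 upstream regions passed over all genes and 3679 gene bodies, against 8885 and 8195 without it. Crossing the numbers, tried after seeing the data, gave 11874 upstream, 12047 over gene bodies and 5187 downstream, against 2831. With a library left out 0 to 2303 passed upstream, 1430 to 11313 of the gene bodies and 695 to 4933 of the downstream regions.

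Of 443 single folds recomputed, 367 kept their sign and their side of the threshold, 15 lost a call, 17 gained one and 44 changed sign, all 44 without a call. With library totals Dnmt1 (-0.067) and Uhrf1 (-0.15) upstream, Tet3 over the gene body (0.31) and the Dnmt3b difference (-0.53) changed sign. With receptor scaling Dnmt3a (0.86), Tet1 (0.76) and Tet3 (0.52) upstream, Dnmt3l (0.29) and Tet3 (0.60) over the gene body, Tet2 downstream (0.034) and the Tet1 difference (0.15) did. With pooled totals Dnmt3a (0.46), Tet1 (0.41) and Tet3 (0.11) upstream, Tet3 over the gene body (0.19) and the Tet1 difference (0.21) did. With the GC correction Dnmt1 (-0.21), Uhrf1 (-0.32) and Dnmt3b (-0.019) upstream, Dnmt3a (-0.029) and Tet1 (-0.065) over the gene body and the Dnmt3b difference (-0.11) did. Under the replicate block and the crossed block Uhrf1 upstream was -0.062 and -0.044. With a mean count of at least 50 Tet3 over the gene body was 0.090 and Tet2 downstream 0.0079.

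With a library left out, the folds that changed sign ranged as follows. Upstream they ran from -0.081 to 0.51 for Dnmt1, -0.81 to 0.61 for Uhrf1, -0.265 to 0.16 for Dnmt3a and -0.45 to 0.33 for Tet1. Over gene bodies they ran from -0.039 to 0.62 for Dnmt3b, -0.23 to 0.28 for Tet1, -0.013 to 0.34 for Tet2 and -0.17 to 0.17 for Tet3. Downstream they ran from -0.12 to 0.87 for Tet1 and -0.62 to 0.14 for Tet2. The difference of folds ran from -0.16 to 0.19 for Dnmt3b and from -0.23 to 0.043 for Tet1. The cause of these changes was not tested. A fit without a library assumes that the lone library of its group varies like the other group.

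Depth limits Uhrf1 upstream and Tet3 downstream, which held 12 counts or fewer in any library. No absolute level can be given without a spike-in.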
